A study of Homo sapiens with 18 samples.

Results

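The regions described here are stretches of open chromatin whose accessibility in T47D breast cancer cells was raised in 2 steps by the progestin R5020, once between vehicle and 0.1 nM and again between 0.1 nM and 10 nM. They were chosen from a table of read counts by their own values. The log2 CPM of each region (a region's counts over the TMM-scaled library size, from edgeR's cpm function, with a prior count of 2) was averaged over the 3 libraries of each group. A region was kept where 0.1 nM minus vehicle was at least 0.7 and 10 nM minus 0.1 nM was at least 0.7, at 6 h and also at 18 h. The rule held 1026 of 132604 regions, or 0.774%. Of these, 1025 passed edgeR's filter on low counts and entered the tests, and 1 did not. Since the dose differences chose the regions, those differences are given as a description, with no test.

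R5020 (promegestone) is a synthetic progestin that binds the progesterone receptor, a nuclear receptor that acts as a ligand-dependent transcription factor. With ligand bound, the receptor dimerises, binds DNA at progesterone response elements and recruits coregulators and remodelling complexes, and chromatin around such sites can open. T47D is an established human breast carcinoma line of luminal type, widely used for progestin work because it holds a high level of the receptor without added estrogen. Omni-ATAC-seq uses the Tn5 transposase, which cuts accessible DNA and inserts sequencing adapters, so the reads in a region follow how accessible it was.

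The series asks how the chromatin of these cells answers different amounts of a progestin over time. All cells were first held in medium with very little, hormone-stripped serum. They then received DMSO vehicle, R5020 at 0.1 nM or R5020 at 10 nM and were collected after 6 h or 18 h, which makes 6 groups of 3 libraries. All groups come from the same line. Separate cultures are not stated for the libraries, so a p-value here covers only the spread among the libraries at hand, some of which may be technical. Regions are named by their hg19 chromosome, start and end as the table gives them, and whether the start counts from 0 or 1 is not stated there. Gene names, cell type markers and sequence were not analysed here, because the annotation at hand is of another build.

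Each library held between 8756311 and 39984217 counts in regions. The stepwise regions took a median of 5 to 20 counts per region in the vehicle libraries, 23 to 67 in the 0.1 nM libraries and 56 to 274 in the 10 nM libraries. The thinnest reading was replicate 1 of vehicle at 6 h, where 169 of the 1026 regions had no count and 418 had at most 3. The library that stood furthest from its own group was replicate 1 of 10 nM at 18 h, with a mean correlation of 0.844 with the other replicates. As a measure of how concentrated the signal was, the 5000 strongest regions took 36% to 41.7% of the counts in vehicle libraries, 33% to 39.6% in 0.1 nM libraries and 30.7% to 37.4% in 10 nM libraries.

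In cells without progestin the stepwise regions were weak. At 6 h their median log2 CPM was -0.72, -0.29 and 0.20 in the vehicle libraries, 1.05, 0.83 and 0.83 with 0.1 nM, and 2.54, 2.55 and 2.71 with 10 nM. At 18 h it was -0.22, -0.12 and 0.35 with vehicle, 1.29, 1.03 and 1.19 with 0.1 nM, and 2.90, 2.21 and 2.40 with 10 nM. A typical region therefore lay below the median of all regions (1.03 to 1.42 log2 CPM in each library) without hormone, close to it at 0.1 nM and above it at 10 nM, and no library median of one dose reached those of the next. In plain CPM, the median region averaged 0.765 with vehicle, 1.86 with 0.1 nM and 6.1 with 10 nM at 6 h. At 18 h it averaged 0.918, 2.13 and 5.67 CPM in the same order of dose. Together the regions held 0.131% ± 0.0382 of all counts with vehicle, 0.312% ± 0.0222 with 0.1 nM and 1.05% ± 0.0533 with 10 nM at 6 h (SD, n = 3 each). At 18 h they held 0.151% ± 0.0342, 0.37% ± 0.0204 and 1.02% ± 0.124 with vehicle, 0.1 nM and 10 nM (SD, n = 3 each). The spread among vehicle libraries went with the concentration of their signal: the median of the stepwise regions was lowest where the 5000 strongest regions took 41.7% (6 h) and 40% (18 h) of the counts and highest where they took 37% and 36%. The part of this in the dose differences was not tested.

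**Figure D1:**
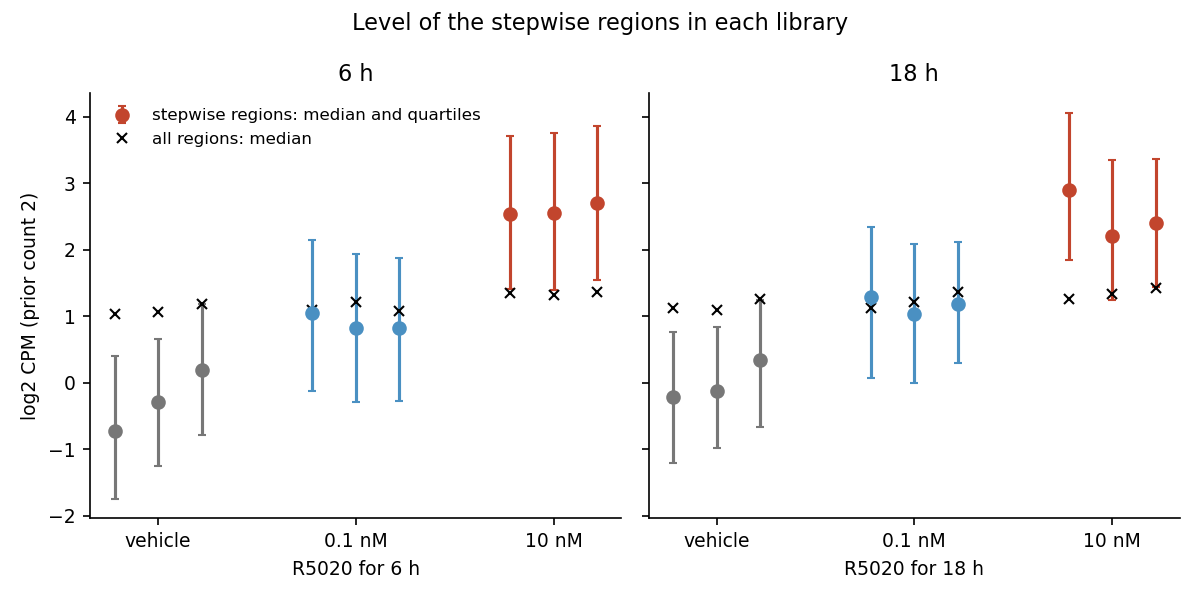
Level of the stepwise regions in each of the 18 libraries, by R5020 dose (horizontal axis) at 6 h and 18 h. Points are the median over 1026 regions in log2 CPM and bars run between the quartiles; crosses are the median over all 132604 regions. Vehicle medians lie between -0.72 and 0.35, 0.1 nM medians between 0.83 and 1.29 and 10 nM medians between 2.21 and 2.90.

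The median first step was the same at both times and the median second step was larger, more so at 6 h. The median of 0.1 nM minus vehicle was 1.07 log2 at 6 h, with quartiles of 0.87 and 1.41, and 1.07 at 18 h, with quartiles of 0.87 and 1.36. The median of 10 nM minus 0.1 nM was 1.58 (1.18 to 2.10) at 6 h and 1.25 (0.94 to 1.69) at 18 h. Over the whole range, 10 nM minus vehicle was 2.84 at 6 h and 2.45 at 18 h, with extremes of 1.41 and 5.28. The prior count pulls these differences towards 0 in regions with few counts. The 10 nM step exceeded the 0.1 nM step in 741 regions at 6 h and in 623 at 18 h. It did so at both times in 513, while the first step was the larger at both times in 175 and the order differed between the times in 338. The steps of one time share the 0.1 nM libraries, so a library that reads low there makes one step smaller and the other larger.

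On the linear scale, most of the gain came with the higher dose. At 6 h, 0.1 nM gave a median of 20.5% of the CPM gained at 10 nM (quartiles 12.9% and 29.7%), and at 18 h it gave 27.8% (18.7% to 36.1%). Read library by library, that median was 22.9%, 16.6% and 17.5% in the 0.1 nM libraries of 6 h and 27.3%, 21.5% and 24.6% in those of 18 h. Replicate 2 at 18 h thus lay below replicate 1 at 6 h, so the times overlapped in this measure. In 999 of the 1026 regions the lower dose gave under 50% of the gain at both times, and in 1 it gave over 50% at both. Across regions, the share reached at 0.1 nM at 6 h and at 18 h had a Pearson r of 0.50 and a Spearman rho of 0.52 (n = 1026 regions, which share their libraries and scaling). The total gain, 10 nM minus vehicle in log2, had an r of 0.68 and a rho of 0.65 between the times over the same regions.

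**Figure D2:**
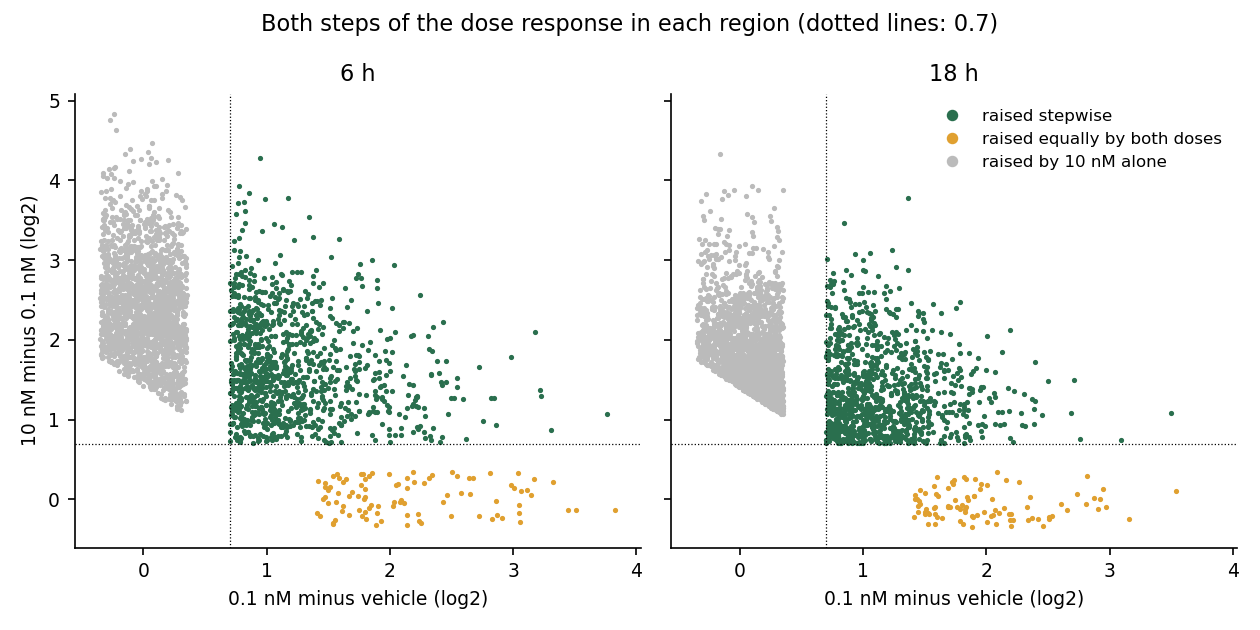
First step (0.1 nM minus vehicle, horizontal) against second step (10 nM minus 0.1 nM, vertical), both in log2 CPM, for each region at 6 h and 18 h. Green points are the 1026 stepwise regions, orange points 94 regions raised equally by both doses and grey points 1916 regions raised by 10 nM alone; the dotted lines mark 0.7, and the gaps between the colours come from the rules that define the lists.

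The starting level varied widely, and the median steps of the chosen regions were of like size at each level. The rule set the same minimum step at every level, and the prior count makes steps smaller where counts are few. Whether step size depends on the starting level can therefore not be read from these regions. With the vehicle level averaged over both times, 325 regions (31.7%) lay under 0.5 CPM, 244 between 0.5 and 1 CPM, 239 between 1 and 2 CPM, 145 between 2 and 4 CPM and 73 (7.12%) at 4 CPM or more. Among all regions of the table, 9.06% lay under 0.5 CPM and 32.1% at 4 CPM or more. The median first step ran from 1.02 to 1.11 log2 over these classes and the median second step from 1.2 to 1.5, both lowest in the regions at 4 CPM or more. In those 73 regions 0.1 nM gave a median of 25% of the gain at 6 h and 34.4% at 18 h, against 20.2% and 26% in the regions under 0.5 CPM.

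The rule works on group means, so the libraries of neighbouring doses can overlap in a chosen region. At 6 h, all 3 libraries of 10 nM lay above all of 0.1 nM, and these above all of vehicle, in 632 of the 1026 regions (61.6%), where 2.48% of all regions had that order. At 18 h this held in 624 (60.8%, with 1.81% of all regions), and at both times in 434 (42.3%, with 0.591% of all regions). Overlap was mostly between 0.1 nM and vehicle: these groups were apart in 642 regions at 6 h and 727 at 18 h (7.44% and 8.99% of all regions), while 10 nM and 0.1 nM were apart in 981 and 843 (23.3% and 12.8% of all regions).

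The regions ranked highest by the smallest of their 4 steps went from near the floor of detection to well above the typical region. First among them was chr14:80848248-80848687, 439 bp wide. At 6 h it had 0.614, 0.253 and 1.46 CPM in the vehicle libraries, 3.13, 3.66 and 2.12 with 0.1 nM and 12.1, 13.1 and 13 with 10 nM. At 18 h it had 0.719, 0.925 and 1.12 CPM with vehicle, 5.53, 3.60 and 3.99 with 0.1 nM and 23.2, 12.8 and 13 with 10 nM. Each dose lay clear of the next at both times, with steps of 2.04 and 2.10 log2 at 6 h and 2.13 and 1.85 at 18 h, and one 10 nM library of 18 h stood high.

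The next in rank, chr1:155647729-155648136, had 0.614, 1.19 and 1.87 CPM with vehicle, 5.63, 5.64 and 2.89 with 0.1 nM and 18.8, 20.5 and 20.8 with 10 nM at 6 h. After 18 h the values were 1.10, 2.06 and 1.65 CPM with vehicle, 6.52, 4.99 and 5.41 with 0.1 nM and 27.4, 16.8 and 18.1 with 10 nM. Here too no libraries of neighbouring doses overlapped. The third, chr18:56213329-56213669, started lowest, with 0, 0.0724 and 0.487 CPM in the vehicle libraries of 6 h. It reached 2.39, 1.02 and 2.41 CPM with 0.1 nM and 8.80, 7.12 and 8.45 with 10 nM at 6 h, and at 18 h 0.338, 0.411 and 0.708 CPM with vehicle, 2.45, 1.52 and 2.28 with 0.1 nM and 10.7, 5.41 and 6.56 with 10 nM. Again the doses were apart in every library. The other 3 of the 6, chr1:175273689-175274040, chr4:103638603-103639192 and chr2:202286672-202287285, were likewise ordered without overlap at both times, with smallest steps of 1.78, 1.78 and 1.65. The last of these had 15.8, 13.4 and 14.2 CPM with 10 nM at 6 h and 11.2, 6.79 and 5.18 at 18 h, so its 10 nM libraries of 18 h all lay below those of 6 h, though the change was not called (edgeR adjusted p = 0.29).

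**Figure D3:**
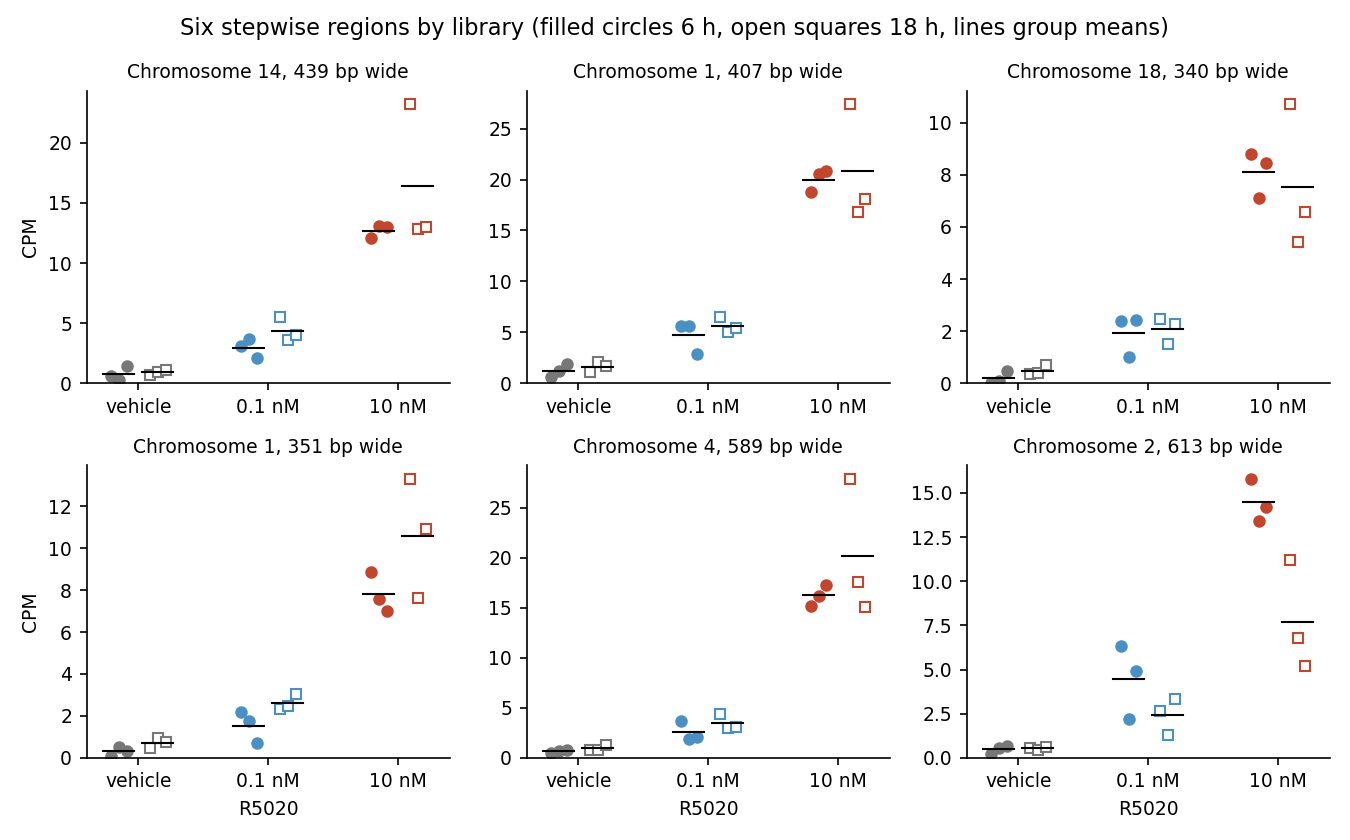
CPM of the 6 stepwise regions with the largest smallest step, by R5020 dose, one panel per region. Filled circles are the 3 libraries of 6 h, open squares those of 18 h and lines the group means; in each panel all 10 nM libraries lie above all 0.1 nM libraries of the same time, and these above all vehicle libraries.

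A few stepwise regions were strong in absolute terms. The highest with 10 nM was chr20:58401286-58402112, 826 bp wide. Its vehicle libraries had 5.32, 7.46 and 11.6 CPM at 6 h, those of 0.1 nM 50.7, 44.5 and 40.1, and those of 10 nM 110, 98.8 and 117. The 18 h libraries had 10.6, 8.79 and 11.3 CPM with vehicle, 70.9, 48.6 and 44.6 with 0.1 nM and 143, 107 and 108 with 10 nM. Its first step was the larger one, 2.52 against 1.27 log2 at 6 h and 2.39 against 1.14 at 18 h, and 0.1 nM already gave 36.9% and 40.8% of the gain in CPM.

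The second highest, chr15:93347012-93347893, shows how a region can meet the rule with overlapping libraries. At 6 h it had 23, 24.6 and 9.58 CPM with vehicle, 39.9, 39.8 and 20.3 with 0.1 nM and 71.7, 79 and 72.2 with 10 nM. Replicate 3 was low in vehicle and in 0.1 nM alike, and again at 18 h, with 25, 27.4 and 11.2 CPM with vehicle and 63.5, 61 and 30 with 0.1 nM. With 10 nM at 18 h it had 118, 74.7 and 64 CPM. The 0.1 nM and vehicle libraries overlapped at 6 h, and the region did not stay in the set under every choice that left out 1 library. The other 4 of the 6 strongest were chr1:145281171-145282091, chr1:155010385-155011733, chr17:74641262-74642029 and chr18:45883306-45883979, all ordered without overlap at both times. They averaged 4.46 to 11.8 CPM with vehicle, 15 to 29.2 CPM with 0.1 nM and 61.1 to 87 CPM with 10 nM at 6 h. At 18 h they averaged 4.55 to 15.5, 17.2 to 32.7 and 45.9 to 61.5 CPM in the same order of dose.

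Among the 6 largest gains over both times, the steps were divided in different ways. At chr5:76353354-76353893 nearly all of the gain came with the second step. It had 0.614, 0.362 and 1.54 CPM with vehicle, 3.01, 1.62 and 1.54 with 0.1 nM and 23, 20.4 and 28.7 with 10 nM at 6 h, and 0.1 nM gave 5.24% of the gain there and 4.7% at 18 h. At 18 h the libraries had 0.677, 0.514 and 1 CPM with vehicle, 2.78, 1.25 and 2.18 with 0.1 nM and 40.7, 21.5 and 25.7 with 10 nM. Vehicle and 0.1 nM touched at 6 h and were apart at 18 h, while 10 nM stood far above both. At chr6:137368175-137368532 the lower dose gave close to as much as the higher one added. That region had 0.102, 0.471 and 0.730 CPM with vehicle, 6.72, 4.2 and 7.83 with 0.1 nM and 11.1, 12.1 and 15.6 with 10 nM at 6 h. In the libraries of 18 h it had 0.211, 0.411 and 0.472 CPM with vehicle, 8.17, 3.95 and 3.70 with 0.1 nM and 14.3, 8.73 and 9.43 with 10 nM. Its first step was 3.76 log2 at 6 h and 3.50 at 18 h, and its second 1.07 and 1.08, with no overlap between doses. The remaining 4 of the 6 largest gains, chr2:158723599-158724187, chr18:56213329-56213669, chr4:139319475-139319861 and chr6:53751549-53751907, gained 4.50 to 5.28 log2 at 6 h and 3.71 to 4.37 at 18 h, and 0.1 nM gave 4.11% to 22.1% of the gain at 6 h. One of them, chr2:158723599-158724187, had overlapping 0.1 nM and vehicle libraries at 6 h.

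At the edge of the rule, regions inside and outside look alike. Just inside it, chr11:77085604-77086061 had steps of 0.70 and 2.36 log2 at 6 h and 0.71 and 1.85 at 18 h, and chr16:48244706-48245188 had 1.09 and 0.99 at 6 h and 1.63 and 0.70 at 18 h. Just outside it, chr2:121306337-121306543 had steps of 1.15 and 1.20 at 6 h, followed by 1.51 and 0.70 at 18 h, where 0.70 is rounded up from just under the threshold. The region on the edge with the fewest counts was chr15:56856420-56856591. It had 0.102, 0 and 0 CPM with vehicle, 0.177, 0.12 and 0.0366 with 0.1 nM and 0.237, 0.272 and 0.271 with 10 nM at 6 h. At 18 h it was 0 in all 3 vehicle libraries and had 0.11, 0 and 0.095 CPM with 0.1 nM and 0.644, 0.162 and 0.739 with 10 nM. This is the 1 member that did not pass the filter on low counts. Of the 1026 regions, 433 had a first step under 1 at 6 h and 417 at 18 h, so the set thins quickly as the threshold rises, to 269 regions at 1. Leaving out each of the 18 libraries in turn kept 284 regions (27.7%) in every case, among them 17 of the 33 members named by rule. All libraries were in dose order at both times in 24 of those 33, against 42.3% of all members and 0.591% of all regions. Many of the 33 were picked for a high level, a large gain or large steps, so their counts do not stand for the set.

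Few of these regions were called between the lengths of treatment. Between 18 h and 6 h within a dose, a comparison the rule did not use, the median difference of the 1025 tested regions was -0.03 log2 with 10 nM, 0.25 with 0.1 nM and 0.18 with vehicle, where the medians of all tested regions were -0.02, 0.04 and 0.01. With 10 nM, 1 region was called higher at 18 h than at 6 h (0.112% of all tested regions were) and 6 were called lower (1.13% of all tested regions were; edgeR quasi-likelihood test, Benjamini-Hochberg adjusted p under 0.05). As shares of the stepwise regions these are 0.0976% and 0.585%, both no larger than in the table as a whole. With 0.1 nM and with vehicle edgeR called none of them in either direction (0.1 nM, 0% of all tested regions higher and 0.00151% lower). At an unadjusted p under 0.05 in edgeR there were 135 with 10 nM (13.2%, against 11.2% of all tested regions). There were 119 with 0.1 nM (11.6%, against 9.8%) and 52 with vehicle (5.07%, against 2.87%). DESeq2 called 22 with 10 nM (305 higher and 2886 lower over all regions), 1 with 0.1 nM and 0 with vehicle. The difference was above 0 in 733 regions (71.5%) with 0.1 nM and in 707 (69%) with vehicle, where 52.9% and 51% of all tested regions were above 0. Since the regions had to be low with vehicle and high with 10 nM at both times, values of both times shaped the choice.

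The number called depended on the fit, and the 7 regions that the main edgeR fit called with 10 nM can be given one by one. The region that was called higher at 18 h with 10 nM was chr10:79504060-79504320, with 7.81, 5.74 and 6.19 CPM at 18 h and 1.66, 2.45 and 3.31 at 6 h. All libraries of 18 h lay above all of 6 h, a log2 change of 1.43 (SE 0.28, edgeR adjusted p = 0.0108). Its other doses were also apart between the times without being called, with 2.12, 2.22 and 1.52 CPM at 18 h and 1.06, 1.26 and 1.28 at 6 h with 0.1 nM (0.72 log2, edgeR adjusted p = 0.467), and 0.973, 0.976 and 1.06 CPM at 18 h and 0.307, 0.652 and 0.73 at 6 h with vehicle (0.76 log2, edgeR adjusted p = 0.999). The largest called fall was at chr9:110904836-110905443, with 15.7, 9.05 and 12 CPM at 18 h and 31.4, 24.5 and 36 at 6 h. It fell by 1.29 log2 (SE 0.23, edgeR adjusted p = 0.00696), again without overlap, while its 0.1 nM libraries had 5.97, 2.98 and 3.89 CPM at 18 h and 6.4, 4.62 and 5.12 at 6 h and were not called. At chr6:139724314-139725135 the 10 nM libraries had 6.92, 5.17 and 5.36 CPM at 18 h and 13.1, 12.3 and 14.5 at 6 h, a fall by 1.16 (SE 0.22, edgeR adjusted p = 0.0111). At chr1:12535604-12536387 they had 17, 13.7 and 11.8 CPM at 18 h and 24.4, 29 and 27.4 at 6 h, a fall by 0.89 (SE 0.17, edgeR adjusted p = 0.00949). Both pairs of groups were apart. The other 3 that fell were chr14:89001190-89001874, chr15:43569364-43570530 and chr4:48604413-48605722, with log2 changes of -0.94, -0.92 and -0.88 and edgeR adjusted p of 0.0329, 0.0231 and 0.0434.

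These calls lean on single libraries. With each library left out in turn and the set chosen anew, the count of falls was 2 and 1 without replicates 2 and 3 of 10 nM at 6 h, and 17, 0 and 1 without replicates 1, 2 and 3 of 10 nM at 18 h. It was 12 without replicate 3 of vehicle at 18 h. Falls over all regions also moved, from 1501 to 772 and 566 without replicates 2 and 3 of 10 nM at 6 h. They were 2707, 539 and 683 without replicates 1, 2 and 3 of 10 nM at 18 h. The count of rises among members was 0 without replicate 1 or 2 of 10 nM at 6 h. It was 2 to 5 without replicate 2 of 0.1 nM, 1 of vehicle or 3 of vehicle at 6 h. It was also within 2 to 5 without replicate 1 of 0.1 nM, 2 of vehicle, 3 of vehicle or 2 of 10 nM at 18 h. Rises over all regions went from 148 to 29 and 25 without replicates 1 and 2 of 10 nM at 6 h. They were 61 without replicate 2 of 10 nM at 18 h. The rise on chromosome 10 stayed called in 16 of these 18 fits, the fall on chromosome 9 in 16 as well and the other 5 in 8 to 15. Fitting the 10 nM groups alone ended all 7 calls and called 2 other members higher and 0 lower, and without replicate 2 of 10 nM at 18 h the counts were likewise 2 higher and 0 lower. By size alone the largest rise was at chr7:104035508-104035954, with 2.60, 2.42 and 4.25 CPM at 18 h and 1.04, 0.68 and 1.20 at 6 h, a log2 change of 1.67 (SE 0.46) that was not called (edgeR adjusted p = 0.0836).

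The times share no library, so regions chosen at one time can be read in libraries that had no part in the choice, apart from the shared scaling and region list. Both steps reached 0.7 in 3741 regions at 6 h (2.82% of all regions) and in 3044 at 18 h (2.3% of all regions), and the stepwise regions are 27.4% of the 6 h list and 33.7% of the 18 h list. Of the regions chosen at 6 h, 3029 (81%) had both steps above 0 at 18 h, where 25% of all regions had. Of those chosen at 18 h, 2338 (76.8%) had both above 0 at 6 h, where 25.2% of all regions had. What was lost was mainly the first step. Of the 6 h list, 1619 kept only a second step of 0.7 at 18 h, 586 only a first step and 510 neither. Of the 18 h list, 1752 kept only the second step at 6 h, 134 only the first and 132 neither.

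The same was seen in the tests. Among regions chosen at 6 h, edgeR called 524 of 3739 higher with 0.1 nM than with vehicle at 18 h, 14%, where 1.74% of all tested regions were called. It called 1438 (38.5%, with 6.67% of all tested regions) higher with 10 nM than with 0.1 nM and 2615 (69.9%, with 12.8%) higher with 10 nM than with vehicle. Median log2 fold changes at 18 h were 0.65, 1.12 and 1.81 in the same order, against -0.01, -0.01 and 0.01 over all tested regions. Among regions chosen at 18 h and read at 6 h, 263 of 3035 (8.67%, with 0.949% of all tested regions) were called higher with 0.1 nM than with vehicle. There, 2198 (72.4%, with 15.1%) were called higher with 10 nM than with 0.1 nM and 2441 (80.4%, with 16.7%) higher with 10 nM than with vehicle, at median log2 fold changes of 0.47, 1.80 and 2.31. Both steps were called at the other time in 257 regions of the 6 h list (6.87%, with 0.271% of all tested regions) and in 218 of the 18 h list (7.18%, with 0.28%). The 3 comparisons of one time share libraries, so they are not independent of each other.

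The share called for the first step depended on single libraries. Read at 18 h, it was 8.26% without replicate 3 of vehicle at 6 h, 7.11% without replicate 1 of 0.1 nM at 18 h, and 5.83% and 7.35% without replicates 1 and 2 of vehicle at 18 h. Read at 6 h, it was 4.2% without replicate 1 of 0.1 nM, 4.36% and 3.54% without replicates 1 and 2 of vehicle at 6 h, and 5.65% without replicate 3 of vehicle at 18 h. The second step read at 18 h was called in 25.5% without replicate 1 of 10 nM at 18 h. In each of the 23 other fits compared, the share called among the chosen regions was above that of all tested regions in all 6 comparisons, by at least 4 times. These fits do not include the adjusted p under 0.01, the minimum step of 1 or the fits of 1 time alone.

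**Figure D4:**
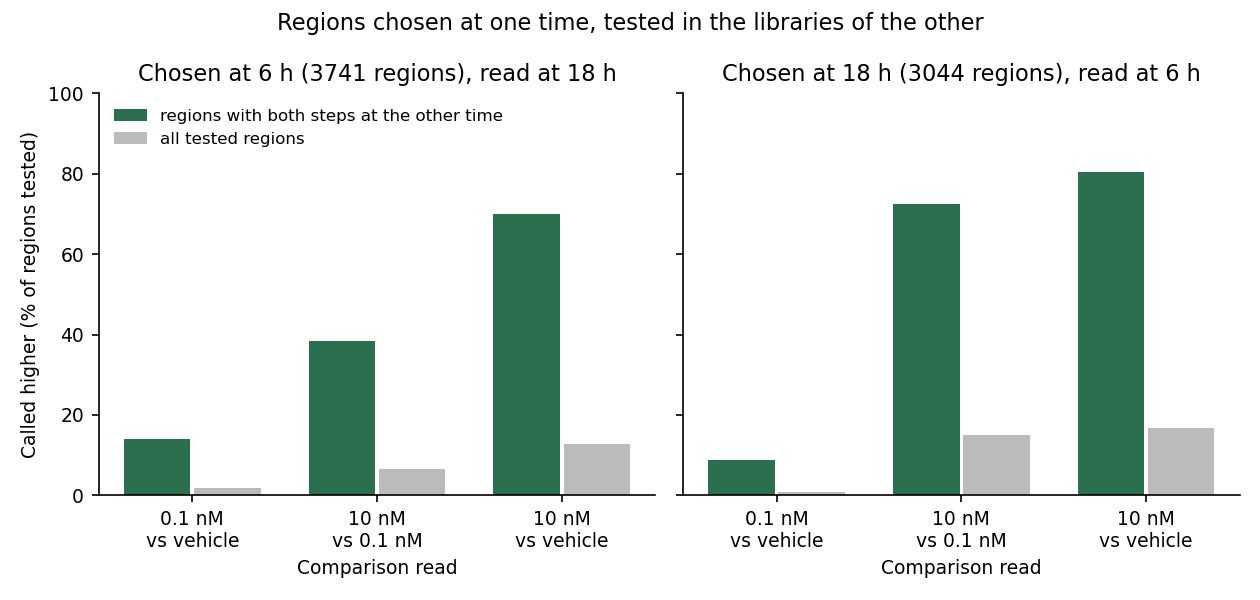
Percent of regions called higher (vertical, edgeR adjusted p under 0.05) in each of 3 dose comparisons (horizontal), for regions chosen by both steps at 6 h and read at 18 h (left) and the reverse (right). Green bars are the chosen regions and grey bars all tested regions; the chosen regions reach 14%, 38.5% and 69.9% at 18 h and 8.67%, 72.4% and 80.4% at 6 h.

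A second reading used replicates instead of times. With 1 replicate number set aside in all 6 groups, the rule was applied to the other 12 libraries and the chosen regions were read in the 6 left out. Setting aside replicate 1 chose 578 regions, replicate 2 chose 1099 and replicate 3 chose 1846. All 4 steps were at least 0.7 in the libraries left out in 50.2%, 26.2% and 10.9% of them, where 1.4%, 1.07% and 0.365% of all regions met this. With replicate 3 left out for reading, the median first step was 0.23 at 6 h and 0.65 at 18 h and the median second step 1.86 and 1.05. The vehicle libraries of replicate 3 were those in which the stepwise regions read highest and the 5000 strongest regions took the smallest share of counts, 37% at 6 h and 36% at 18 h. Whether that share has a part in the low first step there was not tested.

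Stepwise regions were of ordinary width, but like the regions of both comparison lists they were narrower than all regions of the same level with 10 nM. Their median width was 405 bp, with a range of 138 to 1659 bp, against 386 bp for all regions. The regions raised equally by both doses had a median of 477.5 bp and those raised by 10 nM alone 392 bp. Width rises with counts, so it was also read among regions of like level with 10 nM. Between 4 and 8 CPM the median was 406.5 bp in 228 stepwise regions and 559 bp in all 19833 regions, and between 8 and 16 CPM it was 497.5 bp in 226 and 720 bp in all 11509. All regions in those bands had a vehicle median of 5.09 and 10.7 CPM, while the stepwise regions had 0.828 and 1.51 CPM, and the regions raised by 10 nM alone measured 454.5 and 603 bp. The few raised equally by both doses measured 414.5 bp (20 regions) and 666 bp (21 regions) in these bands, and the differences between the lists were not tested. The widest member was chr2:71346292-71347951, with 5.94, 5.65 and 5.19 CPM with vehicle, 19.5, 14.9 and 13.1 with 0.1 nM and 49.1, 46.6 and 52.6 with 10 nM at 6 h. After 18 h it had 5.75, 5.39 and 6.19 CPM with vehicle, 10.9, 11.2 and 8.36 with 0.1 nM and 40.4, 26.5 and 28.1 with 10 nM, with no overlap between doses. The next widest, chr1:109727481-109728896 at 1415 bp, averaged 4.53, 11.6 and 29.5 CPM at 6 h and 4.62, 11.5 and 20.2 CPM at 18 h in rising order of dose.

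The regions were spread over all chromosomes except Y and the mitochondrial one, where the table holds few regions. They were most frequent on chromosome 13, with 33 of its 2383 regions, chromosome X, with 36 of 2828, and chromosome 18, with 30 of 2393. They were least frequent on chromosome 11, with 34 of 8434, and chromosome 19, with 16 of 3868. The gap to the nearest region of any kind had a median of 4.71 kb, against 5.47 kb over all regions. Another stepwise region lay within 100 kb of 174 of them (17%). That share was 6.59% for the 94 regions raised equally by both doses and 24.7% for the 1916 raised by 10 nM alone, and it depends on the size of a list. Joined at gaps of up to 100 kb, the 174 formed 65 pairs and 13 runs of 3 or more, and 852 stood alone.

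The longest runs held 5 stepwise regions. One spanned chr2:28791402-28885000 and 16 regions of the table. Its first region, chr2:28791402-28791994, had 3.48, 3.01 and 3.90 CPM with vehicle, 9.94, 7.26 and 8.71 with 0.1 nM and 16.1, 20 and 20.8 with 10 nM at 6 h. After 18 h the values were 3.17, 2.41 and 2.89 CPM with vehicle, 8.31, 6.79 and 3.99 with 0.1 nM and 20.3, 15.2 and 10.9 with 10 nM. Its doses were apart at both times, as they were in chr2:28836850-28837399, chr2:28856595-28857048 and chr2:28858169-28858536. In the fifth, chr2:28884312-28885000, which averaged 2.58, 4.47 and 20.8 CPM with vehicle, 0.1 nM and 10 nM at 6 h, they overlapped. The same 5 regions differed in shape. The step of 0.1 nM at 6 h was 0.78 to 1.99 log2 and that of 10 nM 0.81 to 2.21, and chr2:28858169-28858536 had the largest first and the smallest second step. Of the other 11 regions in the span, 5 were called higher with 10 nM than with vehicle at 6 h and 6 at 18 h. Of all tested regions, 16.7% and 12.8% were. With 0.1 nM edgeR called none of the 11 at either time, where 0.949% and 1.74% of all tested regions were called higher. At an unadjusted p under 0.05 in edgeR there were 0 at 6 h and 1 at 18 h with 0.1 nM (8.83% and 11.6% of all tested regions), and DESeq2 called 0.

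The other run of 5 spanned chr6:35578712-35683561 among 8 regions of the table. Its strongest region, chr6:35607820-35608305, averaged 0.967 ± 0.104 CPM with vehicle, 2.55 ± 1.19 with 0.1 nM and 23.5 ± 2.15 with 10 nM at 6 h (SD, n = 3 each). At 18 h it averaged 0.942 ± 0.397, 2.98 ± 0.530 and 13.7 ± 6 CPM in the same order, and the doses were apart at both times. The other 4 reached 2.92 to 3.40 CPM with 10 nM at 6 h and 2.43 to 5.51 at 18 h, and 3 of them had overlapping doses. None of the remaining 3 regions in the span was called with either dose by edgeR or DESeq2, and 0 had an unadjusted p under 0.05 in edgeR. Of all tested regions, 16.7% at 6 h and 12.8% at 18 h were called higher with 10 nM than with vehicle. A run of 4 at chr14:80848248-80885360 held the region with the largest smallest step together with chr14:80849637-80849857, chr14:80851809-80852467 and chr14:80885212-80885360. These averaged 2.96, 14.3 and 0.610 CPM with 10 nM, against 0.335, 2.02 and 0.0633 CPM with vehicle at 6 h.

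Regions near a stepwise region but not in the set were also raised more often than the table at large. Within 50 kb lay 6766 tested regions that were not members. Of these, 23.8% were called higher with 10 nM than with vehicle at 6 h and 18.3% at 18 h, where 16.7% and 12.8% of all tested regions were. For 0.1 nM against vehicle it was 1.73% at 6 h and 3% at 18 h, where 0.949% and 1.74% of all tested regions were. For 10 nM against 0.1 nM it was 20.5% and 9.03%, where 15.1% and 6.67% were. Their median difference between 10 nM and vehicle was 0.12 log2 at 6 h and 0.14 at 18 h, where the medians of all tested regions were -0.05 and 0.01. Fewer of them than of the table were called lower with 10 nM than with vehicle, 7.58% at 6 h and 6.53% at 18 h, against 8.42% and 7.56%. With 10 nM against 0.1 nM slightly more of them were called lower, 5.54% at 6 h and 4.73% at 18 h, against 5.25% and 4.22%, and these differences were not tested.

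The excess was steepest close by. Of the 695 tested regions within 5 kb, 253 (36.4%) were called higher with 10 nM than with vehicle at 6 h. That share was 24.8% between 5 and 20 kb, 20.9% between 20 and 50 kb and 17.3% between 100 and 200 kb, against 16.7% in the table. Weak regions are called more often, and the excess was there at both levels. Among regions under 2 CPM with vehicle, 32.4% of those within 50 kb and 24.6% of all were called higher with 10 nM at 6 h, and among those at 2 CPM or more it was 16.3% and 9.3%. Near the regions raised equally by both doses, 26.9% of 647 tested regions within 50 kb were called higher with 10 nM at 6 h and 4.48% with 0.1 nM, and near those raised by 10 nM alone 21.1% of 12263 and 1.13%. Within 5 kb of these lists the shares with 10 nM at 6 h were higher too, 45.9% of 61 and 28.1% of 1238. The differences between the lists were not tested. In all 23 other fits compared the share near stepwise regions was above that of all tested regions in each of the 6 dose comparisons, by 1.32 to 2.23 times. The shares themselves moved. For 0.1 nM against vehicle at 6 h the share was 0.974% without replicate 1 of 0.1 nM and 1.08% and 0.842% without replicates 1 and 2 of vehicle at that time. The share at 18 h was 1.36% without replicate 1 of 0.1 nM and 1.4% and 1.59% without replicates 1 and 2 of vehicle. For 10 nM against 0.1 nM at 18 h it was 5.75% without replicate 1 of 10 nM and 5.3% and 5.97% without replicates 1 and 2 of 0.1 nM.

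**Figure D5:**
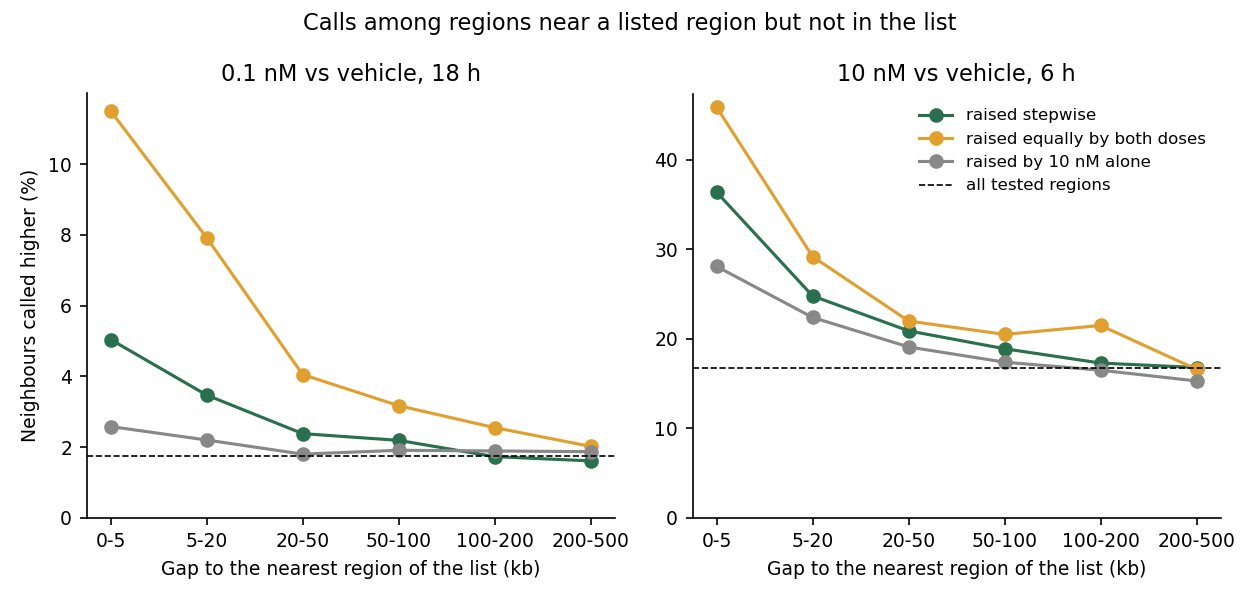
Percent of regions called higher (vertical, edgeR adjusted p under 0.05) by their gap in kb to the nearest region of a list (horizontal), list members left out, for 0.1 nM against vehicle at 18 h and 10 nM against vehicle at 6 h. Green is for stepwise regions, orange for regions raised equally by both doses, grey for those raised by 10 nM alone and the dashed line for all tested regions; beside stepwise regions the right panel falls to 17.3% between 100 and 200 kb, against 36.4% within 5 kb.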

How the data were processed

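Raw read counts per region, deposited by the authors in 1 table of 18 libraries and 132604 regions, were used as given. BWA and MACS2 are named per the submitters' processing notes, with the build hg19. Versions, read filters, any Tn5 shift and peak merging were not given in the sources used here. Peaks of these cells define the regions, and weakly open ones can be missing. Columns were matched to samples by name. In R 4.3.3 with edgeR 4.0.16, filterByExpr (minimum count 10, total 15) kept 132304 regions, TMM factors were used, and the quasi-likelihood test was run in 1 fit of all groups with 12 residual degrees of freedom. Calls are at a Benjamini-Hochberg adjusted p under 0.05 over all tested regions, and the standard error is the log2 fold change divided by the square root of F. The code for the rule and the edgeR test was tried on simulated counts. Its planted regions were stronger with vehicle than many members are, so such weak members were not covered. DESeq2 1.42.0 was an alternative.

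The members and lists were chosen with earlier results of these data known. Regions raised equally by both doses had 0.1 nM minus vehicle of at least 1.4 and 10 nM minus 0.1 nM within 0.35 of 0; regions raised by 10 nM alone had 10 nM minus vehicle of at least 1.4 and 0.1 nM minus vehicle within 0.35 of 0, each at both times. Named members are the 6 highest with 10 nM, the 6 largest gains, the 6 with the largest smallest step, the 4 nearest the threshold on each side, the 3 largest rises and falls with time, the 4 with most members nearby and the 2 widest. Those called between times, and the members of the longest runs, were added after their values were seen.

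Replicate pairs differed by more than sampling noise. Same-numbered libraries deviated together in each pair only for 10 nM and 0.1 nM at 18 h (r = 0.60, 0.19 and 0.45) and for vehicle at 18 h and 6 h (0.32, 0.12 and 0.44), a pairing that comes from the data; the labels give only the numbers.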

Additional observations from a re-analysis of the deposited data

How the results depend on the processing

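The number of stepwise regions was 680 with a prior count of 5, 2396 and 269 at a minimum step of 0.5 and 1, 3741 and 3044 by 6 h or 18 h alone, and 632 without the 2 libraries with the most extreme values (replicate 1 of 10 nM at 18 h and of vehicle at 6 h), an alternative chosen after seeing the data. Leaving out libraries gave 578 to 1846. Of the members, 95.1% stayed under RLE size factors, 99.7% with library size alone and all with a prior count of 0.5.

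For 18 h against 6 h within 10 nM, calls higher and lower over all regions, then among members, were 148 and 1501, then 1 and 6. They were 305 and 2886, then 6 and 16 with DESeq2; 481 and 3297, then 10 and 17 with the replicate block, whose pairing was not met there; 878 and 5685, then 21 and 33 with the share of the 5000 strongest regions as a covariate; 697 and 3358, then 23 lower members without the 2 libraries; 24 and 499, then 0 and 2 at an adjusted p under 0.01; and 52 and 345, then 2 and 0 with those groups fitted alone. Leaving out 1 library gave 25 to 590 and 539 to 2707, then 0 to 5 and 0 to 17. Within 0.1 nM the counts were 0 and 2, then 0 and 0. They were 130 and 81, then 1 higher member with DESeq2; 71 and 76, then 1 and 1 with the replicate block; 148 and 83, then 3 higher members with the covariate; 8 and 9 over all regions without the 2 libraries; and 0 lower at 0.01 or with those groups alone. Leaving out 1 library gave 0 to 7 in each direction and no member. Within vehicle edgeR and DESeq2 called 0 in each fit run, the block and the fits without single libraries included, with 3796 regions at an unadjusted p under 0.05.

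Of regions chosen at 6 h, the percent called for 0.1 nM against vehicle at 18 h was 21.8 with the covariate, 23.4 without the 2 libraries, 6.85 at 0.01, 7.73 with the 18 h groups alone and 5.83 to 19.6 without single libraries. For 10 nM against 0.1 nM it was 23.7 at 0.01 and 25.5 to 44.7, and for 10 nM against vehicle 56.2 to 76.6. Of regions chosen at 18 h, it was 15.2, 5.31, 4.61, 15.8 (minimum step 1) and 3.54 to 9.93 for 0.1 nM against vehicle at 6 h, 59.8 to 80.6 for 10 nM against 0.1 nM and 67.5 to 84.7 for 10 nM against vehicle. Near members, 0.1 nM against vehicle gave 2.76 and 4.82 (6 h, 18 h) with the block, 4.12 and 6.06 with the covariate, 0.975 and 1.54 at 0.01, and 0.842 to 2.23 and 1.36 to 3.77 without single libraries. At 0.01, 10 nM gave 5.01 against 0.1 nM and 11.8 against vehicle at 18 h. Without single libraries, 10 nM against 0.1 nM gave 15.7 to 21.7 and 5.3 to 9.95, and 10 nM against vehicle 18.2 to 25.3 and 12.4 to 19.2. The balance of calls turned in some fits: among members within 10 nM to 2 higher and 0 lower with those groups alone and without replicate 2 of 10 nM at 18 h, and over all regions within 0.1 nM to more higher than lower with DESeq2 and with the covariate. Each share near members, or in regions chosen at the other time, was above that of all tested regions in the 23 other fits compared. The causes were not tested. In the comparisons whose numbers pair the libraries the block changed no call count by over 1.5 times. Few counts in the vehicle libraries limit how precisely the vehicle level, and thus the first step, can be read. The part of depth in the size of the first step was not tested.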
